A study of Mus musculus with 6 samples.

Results

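ATP-binding cassette (ABC) transporters and organic anion transporting polypeptides (the SLCO family) were followed in liver RNA of 6 mice on the HFC diet, 2 each with vehicle, lovastatin or fenofibrate. Members were the genes whose array symbol has the form of an ABC subfamily A to G gene or of an SLCO gene, without 7 sterol, bile salt and peroxisomal transporters (Abcg5, Abcg8, Abca1, Abcg1, Abcb11, Abcd2 and Abcd3). The rule used names and no measured value. It gave 53 genes among 16887 named genes on the arrays. Of these, 38 were ABC genes (12 ABCA, 8 ABCB, 10 ABCC, 1 ABCD, 1 ABCE, 3 ABCF and 3 ABCG) and 15 were SLCO genes.

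Most ABC transporters are membrane pumps that use ATP to move lipids, drugs, peptides and conjugated metabolites, many of them out of cells or into organelles. Subfamilies E and F have no membrane domain and act in translation. In the liver, pumps of the canalicular membrane export phospholipid, bilirubin conjugates and drugs into bile, while other ABCC pumps export conjugates back to the blood. SLCO proteins do the opposite at the blood-facing membrane: they take up bile salts, bilirubin, hormones and many drugs, statins among them, into the hepatocyte.

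All mice were C57BL/6 aged 7 weeks, with no other allele named. The diet lasted 12 days, and from day 5 the mice received vehicle by mouth, lovastatin at 30 mg/kg (an inhibitor of cholesterol synthesis) or fenofibrate at 100 mg/kg (an activator of the nuclear receptor PPARα). Each mouse was set on a 2-colour array against 1 pool of liver RNA from 6 chow-fed mice of the same strain and age, and no chow mouse was hybridised singly. The lovastatin group rests on sample titles, since its treatment text speaks of fenofibrate.

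Values are deposited log ratios of mouse to pool, read as log2, where 0 is the level of the pool and 1 is a doubling. That base and that direction are likely rather than stated. The dye of the mouse was Cy5 in the HFC and lovastatin groups and Cy3 in the fenofibrate group. An effect of fenofibrate and one of the dye cannot be told apart. The main measure of all diet mice against the pool was therefore a dye-balanced ratio. Its weights were 0.25 for HFC, 0.25 for lovastatin and 0.5 for fenofibrate. An effect of either drug enters it, that of fenofibrate with the largest weight. All arrays share 1 pool, so standard errors and intervals of ratios to the pool leave out the spread between chow mice. For the same reason, signs that agree across mice are not independent. Intensities were not used here, so levels of a gene, and whether a probe stood above background, were not measured. For the same reason the labelled tissue could not be checked against the levels of its markers.

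The arrays differed in quality. The SD over all 21288 probes as deposited ran from 0.419 to 0.570 on 4 arrays. It was 0.725 on HFC replicate 2 and 1.089 on lovastatin replicate 1. On HFC replicate 2, 4 of 8 blocks of spots were displaced: their correlation with the other arrays was between -0.034 and 0.027 as deposited, and between 0.297 and 0.311 once the columns of the block were shifted back. Displaced spots, 50.277% of probes, were set to missing. They held 31 of the 62 member probes, so 26 member genes had no value on that array and 5 kept a value from their other probes, while 26 genes had values on all 6 arrays.

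No member passed the test in any of the 7 comparisons. The background was also 0% of features, in either direction, in 6 of them, and 0.566% in the dye-balanced ratio (110 of 19447 features, limma with Benjamini-Hochberg adjustment, adjusted p under 0.05). The values below are therefore given as measured, with unadjusted counts beside their own background. The dye-balanced ratio was above 0 for 29 of 37 ABC genes and 3 of 15 SLCO genes, where it was for 9943 of 19447 features, and its 95% interval included 0 for all SLCO genes except Slco1b2. On single arrays SLCO genes were not mostly below the pool in HFC replicate 1 (8 of 15 above 0), HFC replicate 2 (4 of 7) or fenofibrate replicate 2 (7 of 14). Among the largest ratios were the neighbouring genes Abcb1b, Abcb1a and Abcb4, at 2.51, 2.26 and 1.64 times the pool. For Abcb1a the mean log2 ratio was 1.880 with fenofibrate, but 0.495 with HFC and 0.440 with lovastatin. Among the lowest was the uptake carrier Slco1b2, at 0.65 times the pool.

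**Figure D1:**
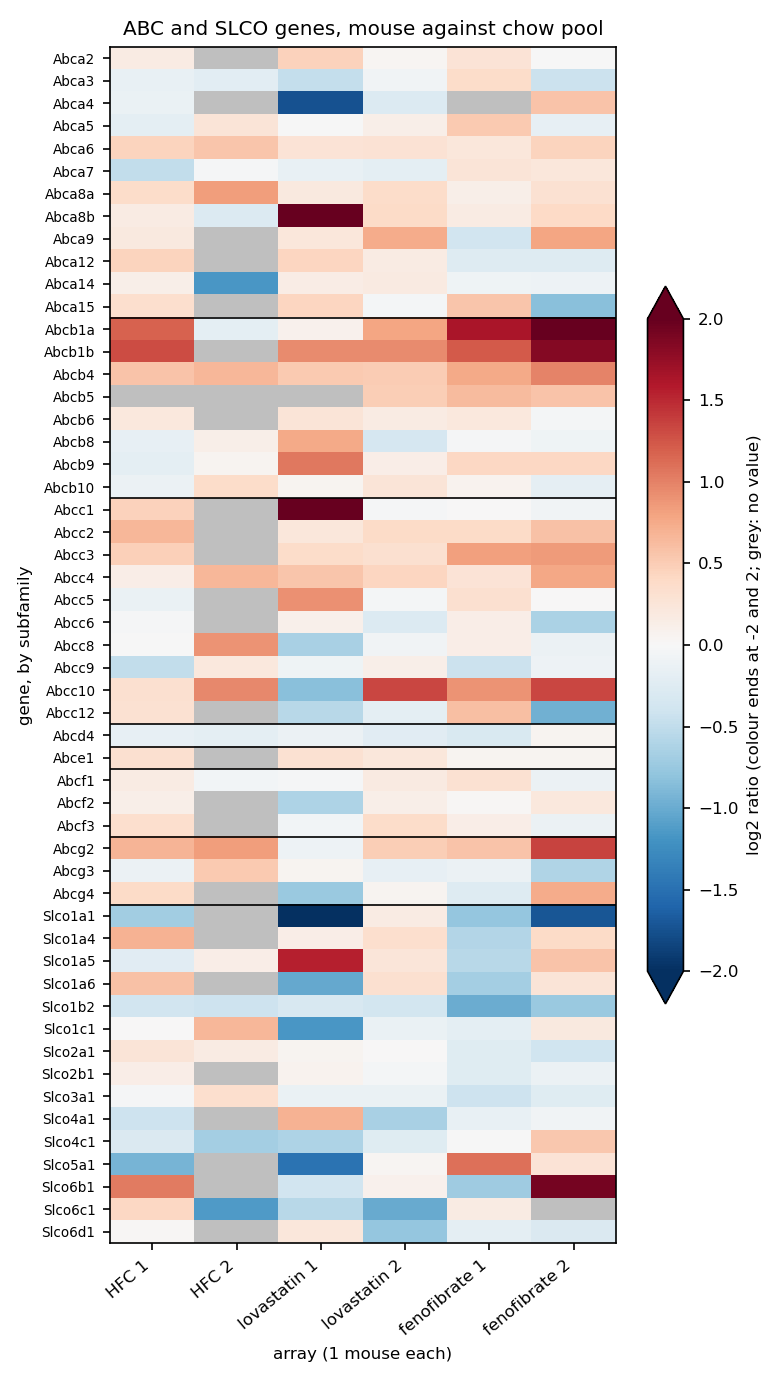
Log2 ratio of each of the 53 genes (vertical axis, by subfamily) to the chow pool on each of the 6 arrays (horizontal axis, 1 mouse each). Red is above the pool, blue below and grey without a value. The block of Abcb1a, Abcb1b and Abcb4 is red on nearly all arrays (Abcb1a was -0.19 on HFC replicate 2), and Slco1b2 is blue on all 6.

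The sequences of 4 start regions are shown because these members had the smallest p in the dye-balanced ratio, and because 3 of them are neighbours. In the RefSeq gene order no other coding gene lies between Abcb1a, Abcb1b and Abcb4, and Slco1b2 lies in a run of SLCO1 genes. The promoter tables of RefSeq (assembly GRCm38.p6) held 42 of the 53 member genes. Each line gives the 250 bases before the start of transcription on the plus strand, at chr5:8566841-8567090 for Abcb1a, chr5:8797897-8798146 for Abcb1b, chr5:8893471-8893720 for Abcb4 and chr6:141629268-141629517 for Slco1b2. Capitals mark matches to short motifs searched on both strands.
Abcb1a: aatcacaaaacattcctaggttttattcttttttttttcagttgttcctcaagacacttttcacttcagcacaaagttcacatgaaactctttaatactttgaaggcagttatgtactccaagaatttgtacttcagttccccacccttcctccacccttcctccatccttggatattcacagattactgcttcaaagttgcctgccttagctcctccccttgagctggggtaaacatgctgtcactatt
Abcb1b: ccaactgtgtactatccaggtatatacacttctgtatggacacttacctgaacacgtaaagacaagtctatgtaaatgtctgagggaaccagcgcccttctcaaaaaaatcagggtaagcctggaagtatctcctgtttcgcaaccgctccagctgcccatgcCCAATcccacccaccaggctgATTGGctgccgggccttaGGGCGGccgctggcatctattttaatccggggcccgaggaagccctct
Abcb4: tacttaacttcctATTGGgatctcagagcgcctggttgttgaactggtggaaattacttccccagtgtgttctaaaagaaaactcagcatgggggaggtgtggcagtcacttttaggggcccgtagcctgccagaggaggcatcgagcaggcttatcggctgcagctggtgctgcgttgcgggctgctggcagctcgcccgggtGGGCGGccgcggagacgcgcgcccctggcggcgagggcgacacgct
Slco1b2: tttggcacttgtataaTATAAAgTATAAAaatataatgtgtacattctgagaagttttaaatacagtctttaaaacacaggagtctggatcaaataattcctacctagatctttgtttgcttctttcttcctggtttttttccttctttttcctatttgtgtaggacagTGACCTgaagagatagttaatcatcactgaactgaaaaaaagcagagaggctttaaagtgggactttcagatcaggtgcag

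The capitals in Abcb1b are 2 matches to the CCAAT box, 87 to 83 and 66 to 62 bases before the start, and 1 GC box (GGGCGG), 48 to 43 bases before it. Abcb4 held the same GC box 46 to 41 bases before its start and a CCAAT box 237 to 233 bases before it. Slco1b2 held 2 TATA boxes (TATAAA) 234 to 229 and 227 to 222 bases before the start, and 1 nuclear receptor half-site (AGGTCA, here on the minus strand) 81 to 76 bases before it. Abcb1a held none of these motifs in this window. The motif of the antioxidant response element core (TGACNNNGC) was found in none of the 4.

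These matches are common among promoters. The CCAAT box was in 35.4% of 21262 promoters of the same length, and in 14 of 51 promoters of members. The GC box was in 42.6% of all promoters and in 22 of the 51. The TATA box was in 11.6% and in 7 of the 51. The half-site was in 12.8% and in 9 of the 51, and the antioxidant core in 10.4% and in 6 of the 51. GC content was 40.4% for Abcb1a, 52.8% for Abcb1b, 61.6% for Abcb4 and 33.6% for Slco1b2, beside a median of 55.6% over all promoters.

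Abcb1a and Abcb1b encode the mouse P-glycoproteins, multidrug efflux pumps of the canalicular membrane. The log2 ratio of Abcb1b was 1.31 in HFC replicate 1, 0.95 in each lovastatin mouse, and 1.22 and 1.83 in the fenofibrate mice. HFC replicate 2 had no usable spot for it, and the displaced value put back was 0.76. All of these lay above the pool. The lovastatin mice were below the other measured mice, with only the put-back value lower still.

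The dye-balanced ratio of Abcb1b was 1.33 (SE 0.15, 95% interval 0.92 to 1.74, limma adjusted p = 0.0767), with 1 HFC array in it. It passed the threshold with the displaced spots put back (1.26, limma adjusted p = 0.031), with quantile normalization (adjusted p = 0.0435) and with array weights (adjusted p = 0.0453). The fit without lovastatin replicate 2 has 1 lovastatin mouse, so its p-value is not read here. With the displaced spots kept as deposited the ratio was 1.10 (limma adjusted p = 0.228). A smaller number of cells of a type and less RNA per cell cannot be told apart in whole liver, for this gene or any other.

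Abcb1a ranged more widely between mice. Its log2 ratio was 1.18 and -0.19 in the HFC mice, 0.09 and 0.79 with lovastatin, and 1.64 and 2.12 with fenofibrate. Both fenofibrate mice, whose dye was Cy3, were above all 4 others, and 1 HFC mouse was below the pool. The share of all features whose groups separate like this was not counted, here or for the genes below. Dye-balanced, Abcb1a was at 1.17 (SE 0.24, 95% interval 0.58 to 1.77, limma adjusted p = 0.159). The 2 P-glycoprotein genes are close copies of each other and probe sequences were not used here, so how far their probes share signal was not tested.

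Abcb4, the next gene in that row, moves phosphatidylcholine across the canalicular membrane into bile. Its log2 ratio was 0.57 and 0.66 in the HFC mice, 0.53 and 0.50 with lovastatin, and 0.75 and 0.99 with fenofibrate. All 6 mice were above the pool within a narrow range, and the fenofibrate mice, whose dye was Cy3, were the highest pair. The dye-balanced ratio was 0.72 (SE 0.11, 95% interval 0.45 to 0.98, limma adjusted p = 0.0812). It passed with quantile normalization (0.85, limma adjusted p = 0.0453) and with array weights (limma adjusted p = 0.0457).

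**Figure D2:**
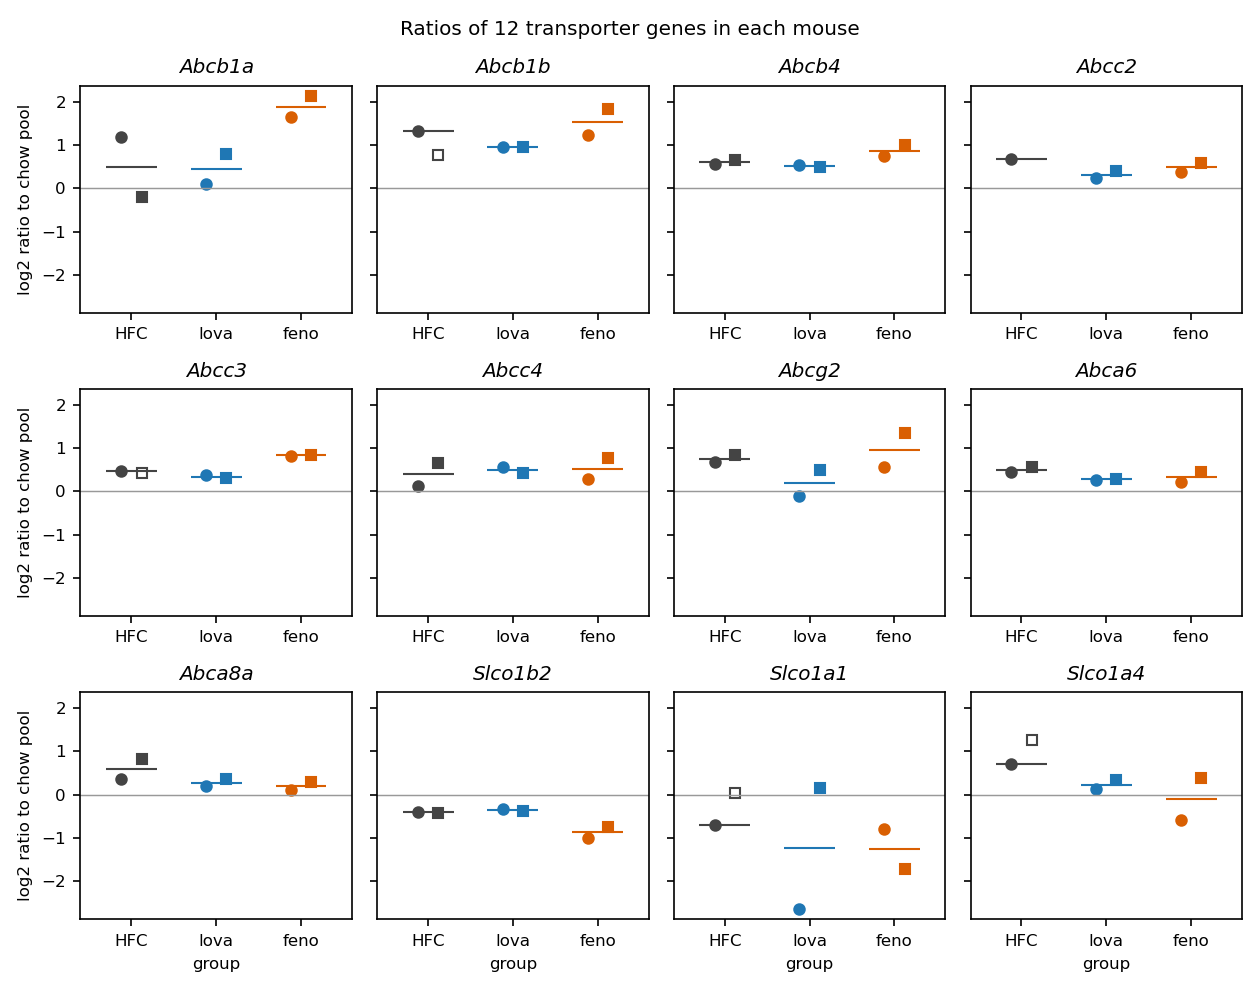
Log2 ratio to the chow pool (vertical axis) of 12 transporter genes by group (horizontal axis: HFC, lovastatin, fenofibrate). Circles are replicate 1, squares replicate 2, lines the group mean and hollow squares the displaced HFC replicate 2 value put back, which is not in the mean. Abcb4, Abca6, Abca8a and Abcc4 lie above 0 and Slco1b2 below 0 in all 6 mice, while Slco1a1 spans -2.63 to 0.16.

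Other canalicular pumps also lay above the pool. Abcg2, the breast cancer resistance protein, which exports drugs and urate, had log2 ratios of 0.68 and 0.84 in the HFC mice, -0.10 and 0.49 with lovastatin, and 0.57 and 1.35 with fenofibrate. It was above the pool in 5 of 6 mice, the exception being lovastatin replicate 1. The HFC and fenofibrate mice overlapped, and both lovastatin mice lay below them. Its dye-balanced ratio was 0.72 (SE 0.16, 95% interval 0.31 to 1.13, limma adjusted p = 0.206).

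Abcc2, which exports bilirubin glucuronide and other conjugates into bile, had a log2 ratio of 0.67 in HFC replicate 1, 0.23 and 0.39 with lovastatin, and 0.38 and 0.59 with fenofibrate. No value was recovered for HFC replicate 2. The 5 measured mice were all above the pool, and the HFC mouse was the highest. Dye-balanced, Abcc2 was at 0.49 (SE 0.13, 95% interval 0.15 to 0.83, limma adjusted p = 0.296).

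Of the ABCC pumps that export toward the blood, Abcc3 and Abcc4 gave similar signs. Abcc3 had a log2 ratio of 0.47 in HFC replicate 1, 0.37 and 0.32 with lovastatin, and 0.82 and 0.85 with fenofibrate, and the displaced HFC replicate 2 value put back was 0.43. The fenofibrate mice stood above the other mice without overlap, on arrays that also carried the other dye. Dye-balanced, Abcc3 was at 0.62 (SE 0.12, 95% interval 0.30 to 0.94, limma adjusted p = 0.187), or 1.54 times the pool.

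Abcc4, which exports bile salts and cyclic nucleotides, had log2 ratios of 0.13 and 0.66 in the HFC mice, 0.56 and 0.43 with lovastatin, and 0.28 and 0.77 with fenofibrate. All 6 mice were above the pool and the groups overlapped fully. Dye-balanced, Abcc4 was at 0.49 (SE 0.14, 95% interval 0.14 to 0.83, limma adjusted p = 0.298). Abcc1, a related export pump, was at 0.46 in HFC replicate 1 and 2.29 in lovastatin replicate 1, but between -0.07 and 0.00 in the other 3 measured mice. Its dye-balanced ratio was 0.38 (95% interval -0.66 to 1.42), so the single high array decided its size.

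Abcc6, the gene mutated in pseudoxanthoma elasticum, lay close to the pool, with ratios from -0.63 in fenofibrate replicate 2 to 0.14 in fenofibrate replicate 1. Its dye-balanced ratio was -0.15 (95% interval -0.64 to 0.33), and 0.040 without fenofibrate replicate 2. The other ABCC members were not uniform. Abcc10, a drug efflux pump, was above the pool in 5 of 6 mice, from 0.32 to 1.34, and was -0.83 in lovastatin replicate 1, and its dye-balanced ratio of 0.78 had an interval of -0.02 to 1.59. Abcc5, Abcc9 and Abcc12 had dye-balanced intervals that included 0. For Abcc8, the sulfonylurea receptor of the pancreatic beta cell, the ratio was 0.02 (95% interval -0.43 to 0.47).

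In subfamily A, the lipid transporters Abca6 and Abca8a belong to a tandem row of 5 genes in the order Abca8b, Abca8a, Abca9, Abca6 and Abca5. Abca6 had log2 ratios of 0.44 and 0.56 in the HFC mice, 0.27 and 0.29 with lovastatin, and 0.23 and 0.44 with fenofibrate. Abca8a had 0.37 and 0.83 in the HFC mice, 0.19 and 0.36 with lovastatin, and 0.11 and 0.30 with fenofibrate. Both genes were above the pool in all 6 mice. For Abca8a the HFC mice lay above the 4 drug-treated mice only narrowly, with HFC replicate 1 at 0.37 and lovastatin replicate 2 at 0.36. For Abca6 they lay above the lovastatin mice, and HFC and fenofibrate met at 0.44. The drug groups overlapped for both genes.

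The dye-balanced ratio was 0.36 for Abca6 (95% interval 0.10 to 0.63, limma adjusted p = 0.299) and 0.32 for Abca8a (95% interval 0.02 to 0.63, limma adjusted p = 0.436). The rest of the row did not share this pattern: Abca9 was above the pool in 4 of 5 mice and Abca5 in 3 of 6. Abca8b reached 2.58 in lovastatin replicate 1 and lay between -0.28 and 0.40 in the other mice. Its 2 probes disagreed on that array, at 4.59 and 0.56, so the high value rests on 1 spot. The 8 members of the subfamily outside the naming rule, Abca9 and Abca5 included with the surfactant lipid transporter Abca3 and the retinal transporter Abca4, had dye-balanced ratios from -0.14 (Abca14) to 0.27 (Abca9), each with an interval that included 0. Abca12, a keratinocyte lipid transporter, was at 0.44, 0.43 and 0.17 on the 3 measured Cy5 arrays and at -0.26 on both Cy3 arrays.

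Among the remaining ABC genes, Abcb9, a peptide transporter of lysosomes, had log2 ratios of -0.19 and 0.06 in the HFC mice, 1.06 and 0.13 with lovastatin, and 0.42 in each fenofibrate mouse. Its dye-balanced interval was -0.06 to 0.75. The mitochondrial transporters Abcb8 and Abcb10 and the porphyrin-related Abcb6 had dye-balanced ratios between 0.02 and 0.15. Abcb5 had values on 3 arrays, from 0.49 to 0.64, and no dye-balanced ratio. Abce1, a ribosome recycling factor, was above the pool in all 5 measured mice, by 0.05 to 0.32, with an interval that included 0. The 3 ABCF genes lay between 0.025 and 0.125, the lysosomal cobalamin transporter Abcd4 at -0.15, and Abcg3 and Abcg4 at -0.14 and 0.13.

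Among SLCO genes, Slco1b2 encodes an uptake carrier of the mouse hepatocyte for bile salts, bilirubin and statins. Its log2 ratio was -0.39 and -0.42 in the HFC mice, -0.32 and -0.37 with lovastatin, and -1.0 and -0.74 with fenofibrate. All 6 mice were below the pool, and both fenofibrate mice, whose dye was Cy3, were below the other 4. The dye-balanced ratio was -0.62 (SE 0.11, 95% interval -0.89 to -0.36, limma adjusted p = 0.112), or 0.65 times the pool. Without lovastatin replicate 2, which leaves lovastatin replicate 1 alone in its group, it was -0.62.

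A list of hepatocyte markers lay on the same side. Of 8 such genes 7 were below 0 in the dye-balanced ratio, where 9498 of 19447 features were. Lower at an unadjusted limma p under 0.05 were 6 of the 8, where 5.63% of features were. The median of the list was between -1.030 and -0.350 on the 6 arrays. Of the 7, Trf was above the pool on every Cy5 array, by 0.190 to 0.730. It was below the pool only on the Cy3 arrays, at -0.620 and -0.900. Serpina1d, to which the listed Serpina1a was matched through a synonym, was the 1 that passed the test (-1.20, limma adjusted p = 0.0273). The part of this shift in the ratio of Slco1b2 was not tested.

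Slco1a1, a sex-dependent uptake carrier of the same membrane, differed widely between mice of a group. Its log2 ratio was -0.70 in HFC replicate 1, -2.63 and 0.16 with lovastatin, and -0.78 and -1.71 with fenofibrate, and the displaced HFC replicate 2 value put back was 0.03. It was below the pool in 4 of 5 measured mice. Its dye-balanced ratio of -1.11 had an interval of -2.40 to 0.18 (limma adjusted p = 0.518). Without lovastatin replicate 2, which leaves the mouse at -2.63 alone for its group, it was -1.46.

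Slco1a4, an uptake carrier for bile salts and cardiac glycosides, had a log2 ratio of 0.70 in HFC replicate 1, 0.13 and 0.34 with lovastatin, and -0.59 and 0.38 with fenofibrate. The displaced HFC replicate 2 value put back was 1.27. The dye-balanced ratio was 0.18 (95% interval -0.35 to 0.71), and -0.061 without fenofibrate replicate 2. These genes stand in 1 row with Slco1c1, Slco1b2, Slco1a6 and Slco1a5, and the row had no common sign: Slco1b2 was below the pool in 6 of 6 mice, Slco1a4 above it in 4 of 5, Slco1a5 above it in 4 of 6, and Slco1a6 and Slco1c1 above it in 3 of 5 and 3 of 6. The Slco1a genes are similar in sequence, and shared signal between their probes was not tested.

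The broadly expressed carriers Slco2b1 and Slco2a1, the latter a prostaglandin transporter, lay near the pool. Slco2b1 ran from -0.25 to 0.14, with a dye-balanced ratio of -0.05 (95% interval -0.38 to 0.28). Slco2a1 was at 0.25 and 0.16 in the HFC mice, 0.06 and 0.00 with lovastatin, and -0.24 and -0.40 with fenofibrate. Only its values on the Cy3 arrays were below 0, and there drug and dye cannot be told apart. The dye-balanced ratio of Slco2a1 was -0.10 (95% interval -0.36 to 0.16). Of the other SLCO genes, the thyroid hormone carrier Slco1c1, Slco3a1, Slco4a1, the kidney carrier Slco4c1, Slco5a1 and the testis genes Slco6b1, Slco6c1 and Slco6d1 all had dye-balanced intervals that included 0. Slco6b1 was the widest of them by group, from -0.71 to 1.91 in the 2 fenofibrate mice.

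**Figure D3:**
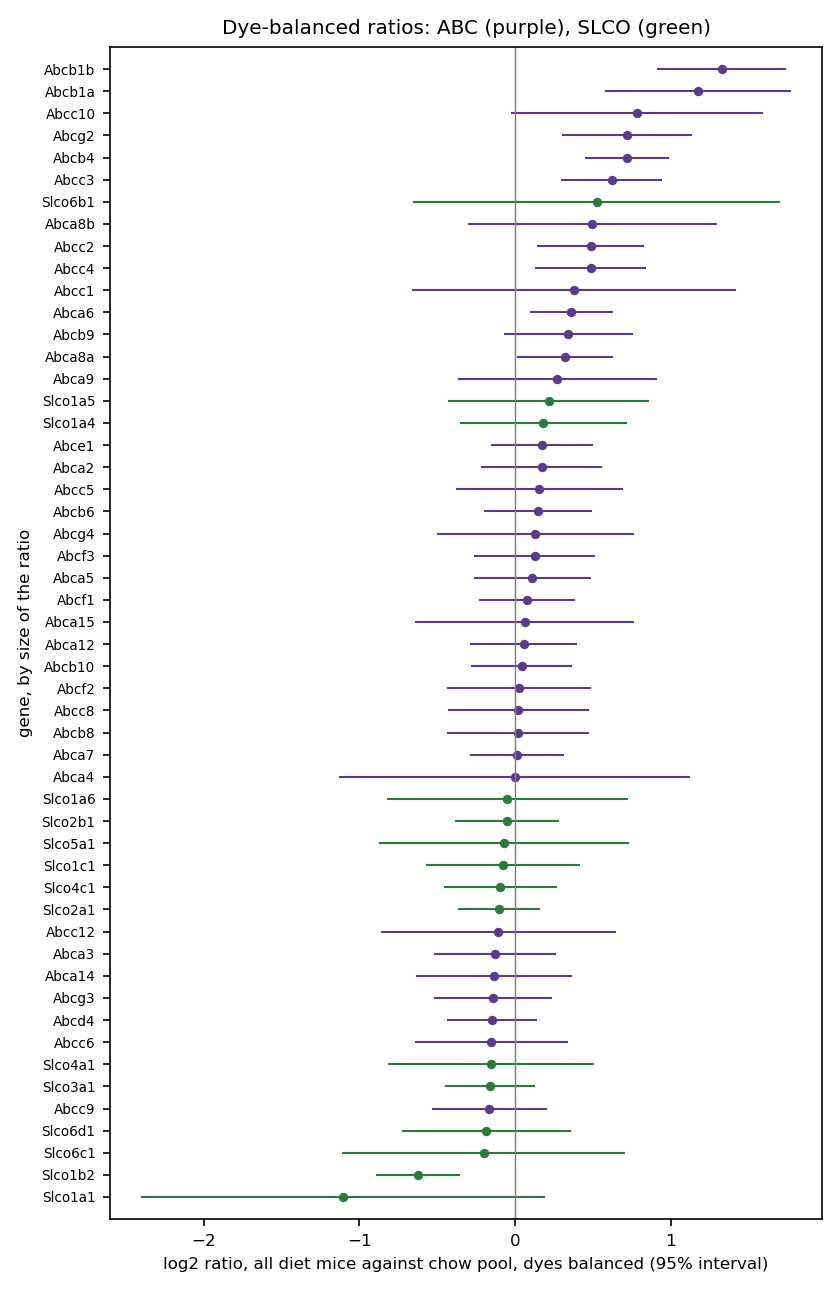
Dye-balanced log2 ratio of diet mice to the chow pool (horizontal axis) with its 95% interval from limma, for the 52 genes with a value (vertical axis, ordered by size; purple ABC, green SLCO). Intervals lie above 0 for 9 ABC genes and below 0 for Slco1b2, and none of the 52 passed the adjusted threshold.

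Counted at an unadjusted limma p under 0.05, the dye-balanced ratio was higher for 9 of 52 members, where 5.19% of features were, and lower for 1 of 52, where 5.63% were. The 9 were Abcb1b, Abcb4, Abcb1a, Abcc3, Abcg2, Abcc2, Abcc4, Abca6 and Abca8a, and the 1 was Slco1b2. A count that uses signs gave 8 members above 0 on every array with a value, of 51 with 5 or 6 arrays (15.7%, where 7.23% of features were), and 1 below (1.96%, where 7.12% were). The 8 were Abca6, Abca8a, Abcb1b, Abcb4, Abcc2, Abcc3, Abcc4 and Abce1. On the 4 arrays other than HFC replicate 2 and lovastatin replicate 1, a set chosen after seeing the data, 13 of 50 members were above 0 and 5 below, where 12.5% and 13.4% of features were.

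The median dye-balanced ratio of all 52 members was 0.06, beside 0.01 over all features. By subfamily it was 0.34 for ABCB (7 genes), 0.27 for ABCC (10 genes), 0.09 for ABCA (12 genes) and -0.10 for SLCO (15 genes). The SLCO median lay below that of each of these ABC subfamilies on HFC replicate 1, lovastatin replicates 1 and 2 and fenofibrate replicate 1, but not on HFC replicate 2 or fenofibrate replicate 2.

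**Figure D4:**
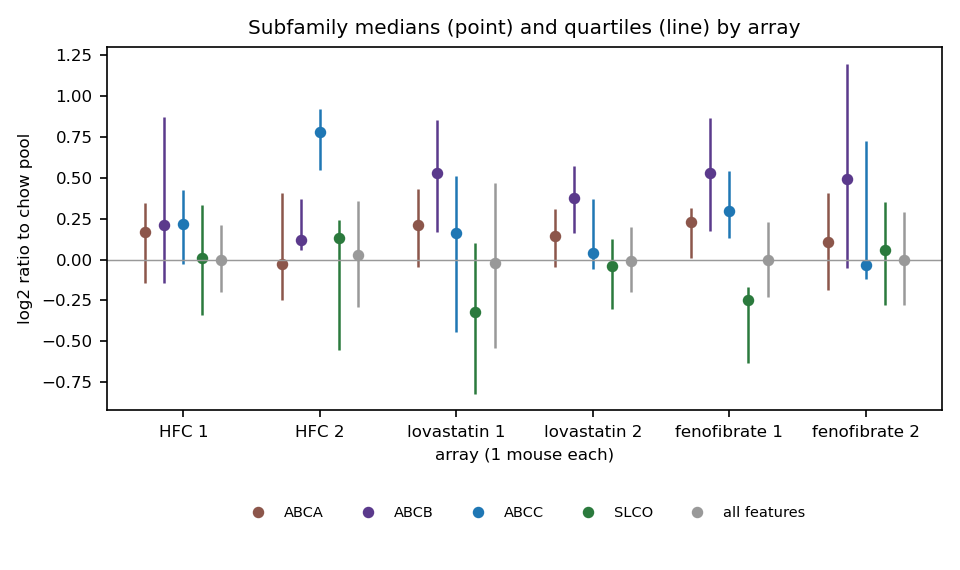
Median (points) and quartiles (lines) of the log2 ratio to the chow pool (vertical axis) of the ABCA, ABCB, ABCC and SLCO genes and of all features, on each array (horizontal axis, 1 mouse each). The ABCB median is above 0 on all 6 arrays, from 0.12 to 0.53, and the median of all features stays between -0.020 and 0.030.

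With the HFC diet alone, Abcb1b, Abcb4, Abca8a, Abca6 and Abcg2 were the 5 members with the smallest p against the pool, all above it. Their group means were 1.31 (1 mouse), 0.615, 0.60, 0.50 and 0.76, with adjusted p between 0.882 and 0.993 in limma. At an unadjusted p under 0.05, 5 of 52 members were higher, where 2.28% of features were, and 0 were lower, where 2.44% were. The members' median was 0.185, beside 0.010 over all features. As in all ratios to the pool, the dye-balanced one included, the test leaves out the spread between chow mice. The pool cancels only in differences between the diet groups.

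With lovastatin, Abcb1b (mean 0.950), Abcb4 (0.515), Abca8b (1.475), Abcb9 (0.595) and Abcc4 (0.495) had the smallest p, each with a limma adjusted p of 0.438. Only the first, the second and the last of these had both mice at like values, since Abca8b and Abcb9 were led by lovastatin replicate 1. With that mouse alone for the group, Abca8b was at 2.58 and Abcb9 at 1.06. At an unadjusted p under 0.05, 3 of 53 members were higher, where 4.62% of features were, and 0 were lower, where 5.96% were. The median of members was 0.155, beside -0.010 over all features.

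With fenofibrate, Abcb1a (mean 1.880), Abcb1b (1.525), Abcb4 (0.870), Abcc3 (0.835) and Slco1b2 (-0.870) had the smallest p, with limma adjusted p from 0.25 to 0.405. At an unadjusted p under 0.05, 5 of 53 members were higher, where 3.85% of features were, and 1 was lower, where 3.76% were. The members' median was 0.085, beside -0.005 over all features. Kupffer cell and macrophage markers were also lower on these arrays: 9 of 10 had a mean below 0, where 9768 of 19470 features did. Lower at an unadjusted limma p under 0.05 were 4 of the 10, where 3.76% of features were. The median of these markers was -0.335 and -0.650 on the fenofibrate arrays, against -0.005 to 0.130 on the others. Whether that bears on these ratios was not tested, and neither was dye.

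Between the diet groups the 3 comparisons share arrays with those above. Lovastatin against HFC, where dye and pool cancel, gave 0 of 52 members past an unadjusted p of 0.05 in limma, where 2% of features were. The smallest p was that of Slco1c1, whose ratio was 0.01 and 0.66 in the HFC mice and -1.16 and -0.14 with lovastatin, a difference of -0.985 (95% interval -2.12 to 0.15, limma adjusted p = 0.972). It was followed by Abca8b, Abcc8, Abcb9 and Slco1a5, with differences of 1.530, -0.806, 0.660 and 0.945. All 4 of these, and that of Slco1c1, rest largely on lovastatin replicate 1 or HFC replicate 2. For Abcb4 the 4 mice lay between 0.50 and 0.66 (difference of the means -0.10, 95% interval -0.71 to 0.51), and for Slco1b2 between -0.42 and -0.32. Without lovastatin replicate 2, which leaves lovastatin replicate 1 alone in its group, the difference of Abca8b was 2.63.

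Fenofibrate against HFC gave 1 of 52 members past an unadjusted p of 0.05, where 2.87% of features were. That member was Abcb1a, with a difference of 1.385 (SE 0.54, 95% interval 0.02 to 2.75, limma adjusted p = 1). The next were Slco4c1 (0.75), Slco2a1 (-0.525), Abca12 (-0.700) and Slco5a1 (1.615), each with an interval that included 0. Fenofibrate against lovastatin also gave 1 of 53, where 5.52% of features were: Abcb1a again, with a difference of 1.440 (SE 0.54, limma adjusted p = 0.701). Slco1b2 differed by -0.525 in that comparison (95% interval -1.14 to 0.09), Slco4c1 by 0.690, Slco5a1 by 1.400 and Abcg2 by 0.765. In both of these comparisons the dye differs with the drug.

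Beside the members, a list of 28 other hepatic transport genes had 22 on the arrays. In the dye-balanced ratio 0 were higher and 1 was lower at the adjusted threshold, where 0.566% of features passed, and at an unadjusted limma p under 0.05 there were 4 higher and 6 lower, where 5.19% and 5.63% of features were. The 1 was Slc22a7, the organic anion transporter OAT2 of the hepatocyte. Its log2 ratio was -1.48 in HFC replicate 1, -1.66 and -1.74 with lovastatin, and -1.68 and -2.40 with fenofibrate. It fell in all 5 measured mice, by 1.82 in the dye-balanced ratio (SE 0.17, limma adjusted p = 0.047). The bile salt uptake carrier Slc10a1 was at -0.65 and the nucleoside carrier Slc29a1 at -0.76, while the bile salt carrier Slc10a2 was at 1.12, and none of these 3 passed. The median of the list was -0.113.

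Of 20 regulators of transporter genes, 18 were measured and 0 passed in either direction, with 3 higher and 1 lower at an unadjusted limma p under 0.05, where 5.19% and 5.63% of features were. The xenobiotic receptor Nr1i2 had a dye-balanced ratio of 0.75 (limma adjusted p = 0.144). The bile acid-responsive repressor Nr0b2 was at 0.67 (limma adjusted p = 0.176), the oxidative stress factor Nfe2l2 at 0.51, and the coactivator Ppargc1a at -0.56. The median of the list was -0.008.

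Of the 7 ABC genes outside the rule, Abcg5, a sterol export half-transporter, rose in all 6 mice by 1.05 to 1.58 and passed the test (dye-balanced 1.30, limma adjusted p = 0.0355). The bile salt export pump Abcb11 was at 1.02 (limma adjusted p = 0.0518). The other marker lists, given as median dye-balanced ratios, lay at -0.239 for Kupffer cells and macrophages (10 genes), -0.161 for lymphocytes (7), -0.125 for red cells (3), -0.082 for stellate cells (8), -0.059 for endothelium (9) and -0.047 for cholangiocytes (6), with 0 genes past the limma adjusted threshold in any of them. At an unadjusted limma p under 0.05, 2 endothelial genes and 1 lymphocyte gene were lower, where 5.63% of features were.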

How the data were processed

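Liver RNA of 6 mice was hybridised on 2-colour arrays, and the deposited table holds the authors' log2 ratios (the log base is taken, not stated). How the scans were read, background-corrected and normalized is not given in the sources used here. Replicates are separate mice per the labels. Of 22575 spots, 726 had no value and 561 were repeated control spots, and 21288 probes remained. Of all spots, 18658 had 1 gene symbol, 30 had several and 3887 had none. All 53 member genes matched the gene table by Entrez number, and 0 symbols changed. Displaced spots of HFC replicate 2 were set to missing. Probes of a gene were averaged (7 members had more than 1).

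Group means were fitted with limma 3.58.1 (R 4.3.3; lmFit, eBayes, prior degrees of freedom 2.37) over 19517 features, with Benjamini-Hochberg adjustment over all features, a threshold of 0.05 and 2-sided tests. Arrays were neither filtered on intensity nor renormalized, and precision is limited by their number. The fit was tested on simulated data. The text names the 5 members with the smallest p in each comparison, those past the threshold, and a fixed set of hepatic transporters, and gives the rest by subfamily. The members, lists (transport genes, regulators and markers of 7 cell types), motifs and the sign count were chosen with earlier results of these data known. Other settings were the displaced spots as deposited or put back, median centring, quantile normalization, arrays scaled to the same spread, 1 probe per gene, array weights, a robust prior, a replicate block, the compared arrays alone and leaving out each array. Deviations of same-numbered mice from their group means correlated between -0.024 and 0.031, so the numbers gave no sign of pairing between mice. Other tools were pandas 2.3.3 and numpy 2.4.6 under Python 3.11.15, with matplotlib 3.10.9 for figures.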

Additional observations from a re-analysis of the deposited data

How the results depend on the processing

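The count of members past the adjusted threshold was 0 under all settings other than those named here. In the dye-balanced ratio it was 1 with the displaced spots put back (Abcb1b), 2 with quantile normalization and 2 with array weights (Abcb1b and Abcb4 in each), and 0 with the replicate block, which changed no call. Leaving out single arrays gave 0 to 5 members for lovastatin against the pool, 0 to 5 for the dye-balanced ratio, 0 to 1 for lovastatin against HFC and 0 to 3 for fenofibrate against lovastatin. Each highest count came without lovastatin replicate 2, where the widest array stands alone for its group and is assumed to vary like the other groups, and the cause was not tested. Without fenofibrate replicate 2 the dye-balanced ratio of Abcc6 turned to 0.040 (range -0.345 to 0.040 without single arrays) and that of Slco1a4 to -0.061 (range -0.061 to 0.424); neither was past the threshold. Without HFC replicate 2 and lovastatin replicate 1, members above 0 on every array numbered 13 and below it 5, against 8 and 1, with fewer arrays to keep 1 sign. Over the settings that keep all arrays, 421 values of single genes kept their direction and side, and 5 came to pass the threshold. Medians over the members moved more often, in 20 values under settings that keep all arrays and in 7 without single arrays. Over all settings the median ran from 0.138 to 0.219 for HFC, 0.065 to 0.170 for lovastatin, 0.005 to 0.118 for fenofibrate and 0.046 to 0.099 for the dye-balanced ratio, and that of fenofibrate against HFC, -0.083, from -0.121 to 0.030. The compared arrays alone gave no separate dye-balanced value, which uses all 6.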
